A study of Mus musculus with 9 samples.

Results

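Transcripts of the red blood cell lineage were followed in a fraction of mouse spleen cells that had been enriched for plasma cells. The set comprised 34 genes chosen by symbol for their place in the red cell program, of which 31 are in the deposited table of 46958 genes and 30 passed the filter on low counts that left 14199 genes for testing. Hbb-b1, Hbb-b2 and Ahsp have no row under those symbols and were not analysed here, and Tfr2 was too low to be tested. The genes were selected with differences between the genotypes in view, so those differences are given as a description. No p-value of a member is given. For the main test, counts of members past a threshold stand beside the share of all genes. The closing section gives counts from other fits without that share.

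The cells came from spleens of 9 mice of a mixed C57/BL6, 129/SV and BALB/c background, 3 months old and not immunized, and were captured on magnetic beads through CD138 (syndecan-1), which plasma cells carry on their surface. Each library holds the captured cells of 1 spleen, and the stated purity was above 80%, so other cells may be present. There were 3 mice in each of 3 genotypes: wild type (WT), DH-LMP2A and kFRA, the last also labelled LCDD, for light chain deposition disease. LMP2A is a membrane protein of Epstein-Barr virus that can stand in for signals of the B cell receptor, and LCDD is a disorder in which a free immunoglobulin light chain is deposited in tissues. The labels describe neither the alleles of DH-LMP2A and kFRA nor what promoter drives them. The study asks what the LCDD light chain does to plasma cells, and the genes described here belong to another lineage. In the whole fraction, fewer erythroid cells and less erythroid RNA per cell cannot be told apart.

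Red cells arise in the bone marrow and, in the mouse, also in the spleen. Committed progenitors switch on the regulators GATA1 and KLF1, which drive the genes of haemoglobin, haem synthesis and the membrane skeleton, and the cells then divide, fill with haemoglobin and lose the nucleus. The resulting reticulocytes no longer transcribe, but keep globin messenger RNA for a time while other transcripts decay, so the balance of globin to membrane and regulator transcripts differs between stages. Maturing cells sit around a central macrophage in erythroblastic islands.

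Total counts lay between 15449026 and 21558128 per library. Values are CPM (counts divided by library size and multiplied to a common scale), adjusted by edgeR's trimmed mean of M values (TMM), and levels of different genes are compared only as RPKM, which divides CPM by the length of the gene model in kilobases. The floor used for detection, 3 counts, equals 0.127 to 0.205 CPM depending on the library, and covers counting error only. The plasma cell markers Sdc1, which encodes CD138, Xbp1, Jchain, Prdm1, Irf4 and Tnfrsf17 summed to 30576 to 42802 CPM in DH-LMP2A, 18063 to 28983 CPM in kFRA and 17840 to 22953 CPM in WT, with Jchain the highest. All 6 were present in every library. They did not all move with the sum. Against WT 5 had a positive log2 fold change in each genotype and 1 a negative one, at −1.16 in DH-LMP2A and −1.69 in kFRA. At an adjusted p under 0.05, edgeR called 1 of the 6 lower in each genotype, beside 7.3% and 11.1% of all genes. It called 1 higher in DH-LMP2A, beside 5.07%. Libraries with high Xist occur in each genotype, so the genotypes are mixed in sex, and kFRA replicate 2 was the single kFRA library with high Xist. WT replicates 1 and 3 and DH-LMP2A replicates 1 and 2 had it too.

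The adult globins were the most abundant members per length in every genotype and, with Alas2, had the largest log2 fold changes of the set in DH-LMP2A. Mean RPKM in DH-LMP2A was 3365.5 for Hba-a1, 3169.6 for Hbb-bs, 546 for Hba-a2 and 465 for Hbb-bt, and the next members were Alas2 at 34.4 and Bpgm at 17.9. In WT the same 4 genes had mean RPKM of 95.9, 93.4, 13.5 and 16.6, followed by Bpgm at 7.54. In kFRA they had 1162.5, 973, 217 and 137, again followed by Bpgm, at 12.2. The 4 globins held 93.7% ± 2.36 of the counts of all members in DH-LMP2A libraries, 90.8% ± 3.75 in kFRA libraries and 57.0% ± 20.2 in WT libraries (SD, n = 3 each). Of the 109.6 CPM of all members in WT replicate 1, 37.4 were adult globins, 21.4 Fech, 21.0 Bpgm and 12.4 Epor. The share where globins are low thus depends much on these other members.

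Hba-a1 and Hba-a2 encode the alpha chain of haemoglobin and lie on chromosome 11 (32283511 to 32284465 and 32296489 to 32297298). Hbb-bs and Hbb-bt encode the beta chain and lie on chromosome 7 (103826534 to 103828096 and 103812524 to 103813996), in GRCm38 coordinates as the table gives them. Hba-a1 was at 17.1, 76.6 and 139.9 CPM in WT replicates 1 to 3, at 1129, 1214 and 5856 CPM in DH-LMP2A and at 519, 986 and 1327 CPM in kFRA. Every DH-LMP2A and kFRA library thus lay above every WT library, and the DH-LMP2A and kFRA ranges overlapped. The log2 fold change of Hba-a1 was 5.13 (SE 0.952) for DH-LMP2A against WT and 3.60 (SE 0.886) for kFRA against WT. DH-LMP2A replicate 3 stood far above its group, and without it the DH-LMP2A value for Hba-a1 became 3.91. WT replicate 1 stood far below its group.

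Hbb-bs followed the same order. It was at 15.6, 80.4 and 146 CPM in the WT libraries, at 1076, 1130.5 and 5999.6 CPM in DH-LMP2A and at 492, 950.4 and 1077 CPM in kFRA. Its log2 fold change was 5.09 (SE 0.982) for DH-LMP2A and 3.38 (SE 0.907) for kFRA, each against WT. As for Hba-a1, no WT library reached a library of the other genotypes. Hba-a2, the downstream copy of the alpha gene, was at 1.98 to 16.7 CPM in WT, 147 to 794 CPM in DH-LMP2A and 81.1 to 230.4 CPM in kFRA. Hbb-bt, the other beta gene, was at 2.79 to 20.1 CPM in WT, 130.3 to 719 CPM in DH-LMP2A and 55.3 to 119 CPM in kFRA. The DH-LMP2A and kFRA ranges of Hbb-bt did not overlap, whereas those of the other adult globins did. Together the 4 genes held 0.0150% ± 0.0108 of a WT library, 0.665% ± 0.641 of a DH-LMP2A library and 0.207% ± 0.0857 of a kFRA library (SD, n = 3 each). Without DH-LMP2A replicate 3 the DH-LMP2A share was 0.295%.

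**Figure D1:**
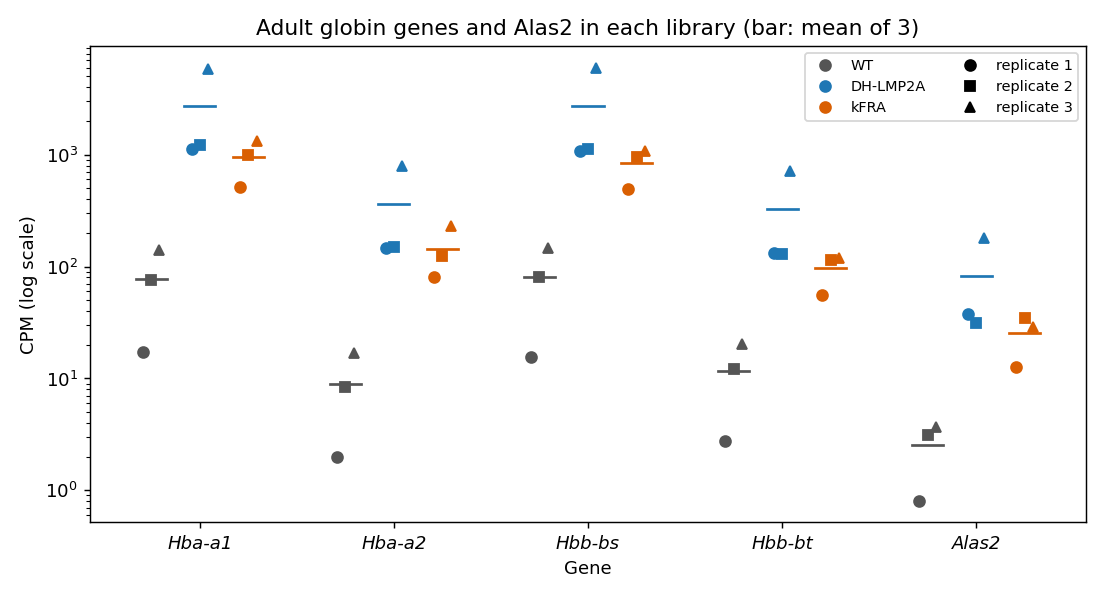
CPM (log axis) of the 4 adult globin genes and Alas2 in each of the 9 libraries, coloured by genotype with a marker shape per replicate number and a bar at the mean of 3. DH-LMP2A replicate 3 lies highest for all 5 genes, WT replicate 1 lies lowest, and no WT library reaches a DH-LMP2A or kFRA library.

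The beta genes are a pair of near-identical copies, and their coding sequences in GENCODE M21 differ at 1 of 441 bases. The stretch around that base is shown because it holds the only coding position at which the copies differ: coding bases 397 to 437 with the differing base (417) in capitals.
Hbb-bs: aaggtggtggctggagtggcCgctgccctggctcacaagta
Hbb-bt: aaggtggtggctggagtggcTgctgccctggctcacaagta
Reads of 75 bases, the length given in the labels, cannot always be placed: 55.8% of the 75-base windows of the Hbb-bs transcript also occur in Hbb-bt, and 56.6% of those of Hbb-bt in Hbb-bs. For the alpha pair, whose coding sequences differ at 1 of 426 bases, 62.2% of the windows of Hba-a1 are shared and 81.0% of those of Hba-a2. How the authors counted reads that fit both copies is not given in the sources used here, so the split between copies is uncertain while the sum over a pair is less so.

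Most of the counted beta-globin reads were assigned to Hbb-bs in every library. Hbb-b1 and Hbb-b2 have no row in which reads could be counted. The shares thus describe how reads were assigned to Hbb-bs and Hbb-bt, and which beta-globin copies each mouse of this mixed background carries was not tested. Hbb-bt made up 10.9%, 10.3% and 10.7% of the Hbb-bs plus Hbb-bt counts in DH-LMP2A replicates 1 to 3. The share in kFRA was 10.1%, 10.8% and 9.91%. In WT it was 15.2%, 13.0% and 12.1%, from only 363, 1812 and 2606 counts. The group means were 10.6% ± 0.288 in DH-LMP2A, 10.3% ± 0.472 in kFRA and 13.4% ± 1.55 in WT (SD, n = 3 each), so the WT libraries lay above the others in this share. The Wilson 95% interval of WT replicate 3 (10.9 to 13.4) met that of DH-LMP2A replicate 1 (10.5 to 11.3). These intervals hold for counting error only, because the reads carry no molecular identifiers and are not independent molecules. The minor copy thus stayed between 9.91% and 15.2% over a span of total adult globin from 739 counts in WT replicate 1 to 292138 in DH-LMP2A replicate 3.

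In the alpha pair Hba-a2 was the minor copy. It took 11.5% ± 0.439 of the alpha counts in DH-LMP2A, 13.1% ± 1.88 in kFRA and 10.3% ± 0.454 in WT (SD, n = 3 each). Its highest shares were 14.8% in kFRA replicate 3 and 13.5% in kFRA replicate 1, against 11.1% in kFRA replicate 2. Alpha and beta chains were close to balance in counts, with beta at 48.0% to 50.3% of adult globin in DH-LMP2A, 43.4% to 49.0% in kFRA and 49.1% to 52.1% in WT. The library with the lowest beta share, kFRA replicate 3, was also the one with the highest Hba-a2 share. Per length, Hba-a1 and Hbb-bs differed little, with an RPKM ratio of 1.10 ± 0.0539 in DH-LMP2A, 1.18 ± 0.114 in kFRA and 1.06 ± 0.0849 in WT (SD, n = 3 each). Embryonic globin transcripts were not detected. Hbb-y, Hbb-bh1, Hbb-bh2 and Hba-x had 0 counts in all 9 libraries, where the floor of 3 counts allows up to 0.127 to 0.205 CPM.

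**Figure D2:**
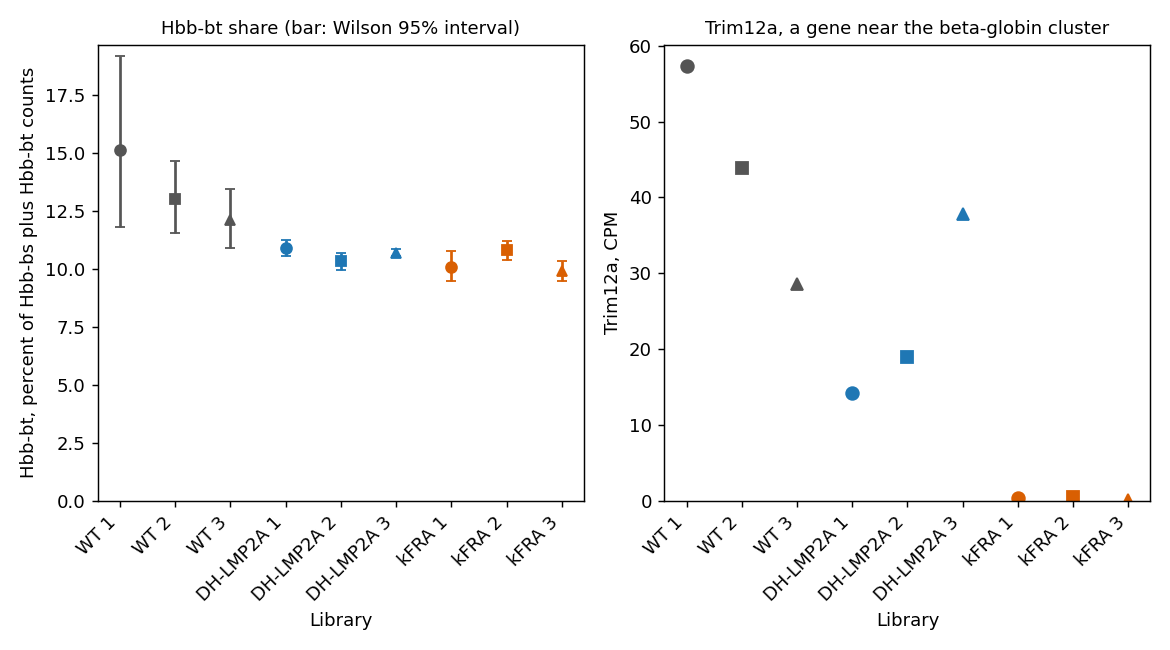
Left, the share of Hbb-bt in the Hbb-bs plus Hbb-bt counts (percent) in each library with its Wilson 95% interval. Right, CPM of Trim12a, a gene 473 kb from Hbb-bs, in the same libraries, where the 3 kFRA libraries lie at 0.476 CPM or below while their Hbb-bt share is like that of DH-LMP2A.

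The promoters of the beta pair are less alike than their coding sequences, with 69.3% identity over the 250 bases before the RefSeq start, against 97.6% for the alpha pair. The gene models positioned above begin further upstream than the RefSeq starts, so each window of the beta pair lies partly inside its gene model. They are shown because the pair was counted at unequal levels, from RefSeq on GRCm38.p6, read on the minus strand of chr7:103827929-103828178 for Hbb-bs and chr7:103813924-103814173 for Hbb-bt. Capitals mark matches to 4 short motifs on either strand: AGATAA (a motif bound by GATA factors), CCACACCC (a form of the CACCC box that KLF1 binds), CCAAT (a box found in many promoters) and ATATAA (the core of the element that places the start of transcription, here called the TATA box).
Hbb-bs: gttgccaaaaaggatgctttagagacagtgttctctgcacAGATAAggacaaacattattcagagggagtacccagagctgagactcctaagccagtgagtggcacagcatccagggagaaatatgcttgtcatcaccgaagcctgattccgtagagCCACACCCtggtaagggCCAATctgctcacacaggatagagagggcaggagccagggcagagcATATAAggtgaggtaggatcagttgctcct
Hbb-bt: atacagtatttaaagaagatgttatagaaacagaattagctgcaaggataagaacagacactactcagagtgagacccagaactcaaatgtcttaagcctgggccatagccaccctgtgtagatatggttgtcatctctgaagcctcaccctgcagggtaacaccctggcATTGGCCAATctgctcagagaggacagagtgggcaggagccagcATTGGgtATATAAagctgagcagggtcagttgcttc
Both promoters hold the CCAAT box and the TATA box, and of the pair Hbb-bs alone holds the exact strings AGATAA and CCACACCC. The shorter strings GATAA and CACCC also occur in the Hbb-bt promoter, where they are not marked. Of the members, 24 have a promoter in the RefSeq table. ATATAA was found in 4 of these 24 (the 4 adult globins), against 9.51% of 27025 promoters. AGATAA was found in 8 of 24 (Hbb-bs, Alas2, Epb42, Tal1, Rhd, Kel, Epor and Trim10), against 10.3% of all promoters. CCACACCC was found in 2 of 24, Hbb-bs and Tfr2, against 3.19%, and CCAAT in 11 of 24, against 34.5%. A match is a string of letters and says nothing of whether a factor is bound in these cells, and a window without one says only that these letters are not in it.

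Hybrid mice can carry different chromosome 7 haplotypes, and the genes around the beta-globin cluster were not alike between the genotypes. Of the 13 tested genes within 1 Mb of Hbb-bs, edgeR's quasi-likelihood test (Benjamini-Hochberg adjusted p under 0.05) called 5 in kFRA against DH-LMP2A, all lower in kFRA, 8 lower in kFRA than in WT and 3 lower in DH-LMP2A than in WT. The share of all tested genes called lower was 3.3%, 11.1% and 7.3% in these comparisons. All of those called in kFRA against DH-LMP2A are members of the Trim family, whose proteins include restriction factors against viruses. Trim12a was at 57.3, 43.8 and 28.6 CPM in WT, at 14.2, 18.9 and 37.8 CPM in DH-LMP2A and at 0.410, 0.476 and 0.125 CPM in kFRA, and kFRA differed from DH-LMP2A by −6.07 in log2 fold change (edgeR adjusted p = 0.000157, SE 0.559). Trim5 (−2.99, edgeR adjusted p = 0.000811), Trim30d (−2.22, edgeR adjusted p = 0.00364) and Trim30b (−2.50, edgeR adjusted p = 0.0179) were lower as well, as was Trim6 (−3.06, edgeR adjusted p = 0.0338). Trim12a, Trim5 and Trim30d kept their calls when any 1 of the 6 libraries was left out, Trim30b lost it without replicate 1 or 2 of DH-LMP2A or 1 or 3 of kFRA, and Trim6 kept it only without kFRA replicate 2. The Trim genes are similar copies of each other, so single values are uncertain. The kFRA libraries thus stood apart in these neighbours but not in the share of Hbb-bt, and the haplotype at the cluster was not tested. Gm16464 was at −1.51 in DH-LMP2A against WT (edgeR adjusted p = 0.117). Around Hba-a1, where 15 genes were tested, the smallest p-values in DH-LMP2A against WT were those of Sh3pxd2b (−2.45, edgeR adjusted p = 0.0896), Hbq1b (edgeR adjusted p = 0.0926), Nsg2 (−2.20, edgeR adjusted p = 0.0935) and Npm1 (0.36, edgeR adjusted p = 0.145). Those in kFRA against DH-LMP2A were of Il9r (−1.43, edgeR adjusted p = 0.0824), Nprl3 (0.40, edgeR adjusted p = 0.138), Mpg (0.33, edgeR adjusted p = 0.279) and Bod1 (0.32, edgeR adjusted p = 0.413). In kFRA against WT 2 of the 15 were called higher (Mpg and Nprl3) and 2 lower (Fbxw11 and Sh3pxd2b). Each of these 4 kept its call in 1 of the 6 fits that left out a library.

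The haem enzymes of the set did not behave alike. Alas2, on chromosome X (150547375 to 150570638), encodes the erythroid form of the first enzyme of haem synthesis. It was at 0.810, 3.11 and 3.69 CPM in WT, at 37.4, 31.5 and 179 CPM in DH-LMP2A and at 12.7, 34.4 and 28.7 CPM in kFRA. All WT libraries were lowest, and the log2 fold changes against WT, 5.04 (SE 0.850) for DH-LMP2A and 3.33 (SE 0.806) for kFRA, were of the size of those of the globins. Alas2 overlaps an exon of Apex2 on the opposite strand and is uncertain to that extent. Summed adult globin RPKM per Alas2 RPKM was 196, 246 and 219.7 in DH-LMP2A, 266, 186 and 284 in kFRA and 136, 168 and 257 in WT, with all groups overlapping. Fech, which inserts iron in the last step of the pathway and is made in most cells, was at 21.4, 19.4 and 23.1 CPM in WT, 27.2, 24.8 and 40.9 CPM in DH-LMP2A and 21.9, 32.1 and 22.0 CPM in kFRA. Every DH-LMP2A library lay above every WT library in Fech, whereas kFRA overlapped WT. The log2 fold changes of Fech against WT, 0.54 (SE 0.220) for DH-LMP2A and 0.25 (SE 0.221) for kFRA, were smaller than those of Alas2.

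Among the regulators, Gata1 and Tfr2 had few counts in all libraries. Gata1, the master regulator of the lineage, had 0, 4 and 9 counts in the WT libraries, 23, 4 and 39 in DH-LMP2A and 2, 33 and 13 in kFRA. Klf1, which activates the adult beta-globin genes, was at 0.152, 0.561 and 1.02 CPM in WT, at 1.27, 0.789 and 4.30 CPM in DH-LMP2A and at 0.547, 2.52 and 1.13 CPM in kFRA. Neither gene separated the genotypes, and in both DH-LMP2A replicate 3 and kFRA replicate 2 were the highest libraries. Tal1, a partner of GATA1 on its target genes, was at 2.04 to 4.81 CPM in DH-LMP2A, above the 0.101 to 1.40 CPM of WT, and spanned 0.479 to 3.81 CPM in kFRA. Hemgn, a nuclear protein of erythroblasts, was at 0.203, 0.918 and 1.53 CPM in WT, at 5.46, 2.37 and 9.29 CPM in DH-LMP2A and at 0.479, 8.47 and 1.57 CPM in kFRA. For Hemgn kFRA replicate 2 was thus near the highest library of all, while kFRA replicate 1 lay within WT. Tfr2, a sensor of transferrin that associates with the erythropoietin receptor, had at most 29 counts in any library and 0 in kFRA replicate 1.

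The other members of this class, Nfe2 and Epor, ran the other way. Nfe2 encodes a subunit of a globin-activating factor that megakaryocytes and granulocytes also express, and was at 3.44, 10.5 and 4.71 CPM in WT, 2.75, 2.37 and 3.43 CPM in DH-LMP2A and 0.342, 2.33 and 1.82 CPM in kFRA. WT lay above both other groups, with log2 fold changes of −1.12 (SE 0.561) and −2.02 (SE 0.592). The granulocyte gene S100a9 was also highest in WT, at 136, 538 and 209 CPM in WT, 116, 131 and 10.5 CPM in DH-LMP2A and 3.42, 3.52 and 11.9 CPM in kFRA. Summed over S100a8, S100a9, Ly6g, Elane, Mpo and Camp, the granulocyte markers were at 218 to 805 CPM in WT, 19.3 to 196 CPM in DH-LMP2A and 7.87 to 21.8 CPM in kFRA. Within WT, S100a9 and Nfe2 both peaked in replicate 2, while within DH-LMP2A and within kFRA they peaked in different libraries. The sum is mostly S100a8 and S100a9. Of the 5 tested granulocyte genes 3 had a positive log2 fold change in DH-LMP2A against WT (median 0.34), with Mpo called higher by edgeR, and 3 had a negative one in kFRA against WT (median −2.27), with S100a8 and S100a9 called lower. Elane had no count in 4 of the 9 libraries, and the part of granulocytes in the Nfe2 values was not tested. Epor, the erythropoietin receptor, was at 12.4, 9.74 and 8.34 CPM in WT, 6.47, 7.56 and 4.26 CPM in DH-LMP2A and 7.73, 10.6 and 7.28 CPM in kFRA. It was lowest in DH-LMP2A replicate 3, the library with the most globin.

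**Figure D3:**
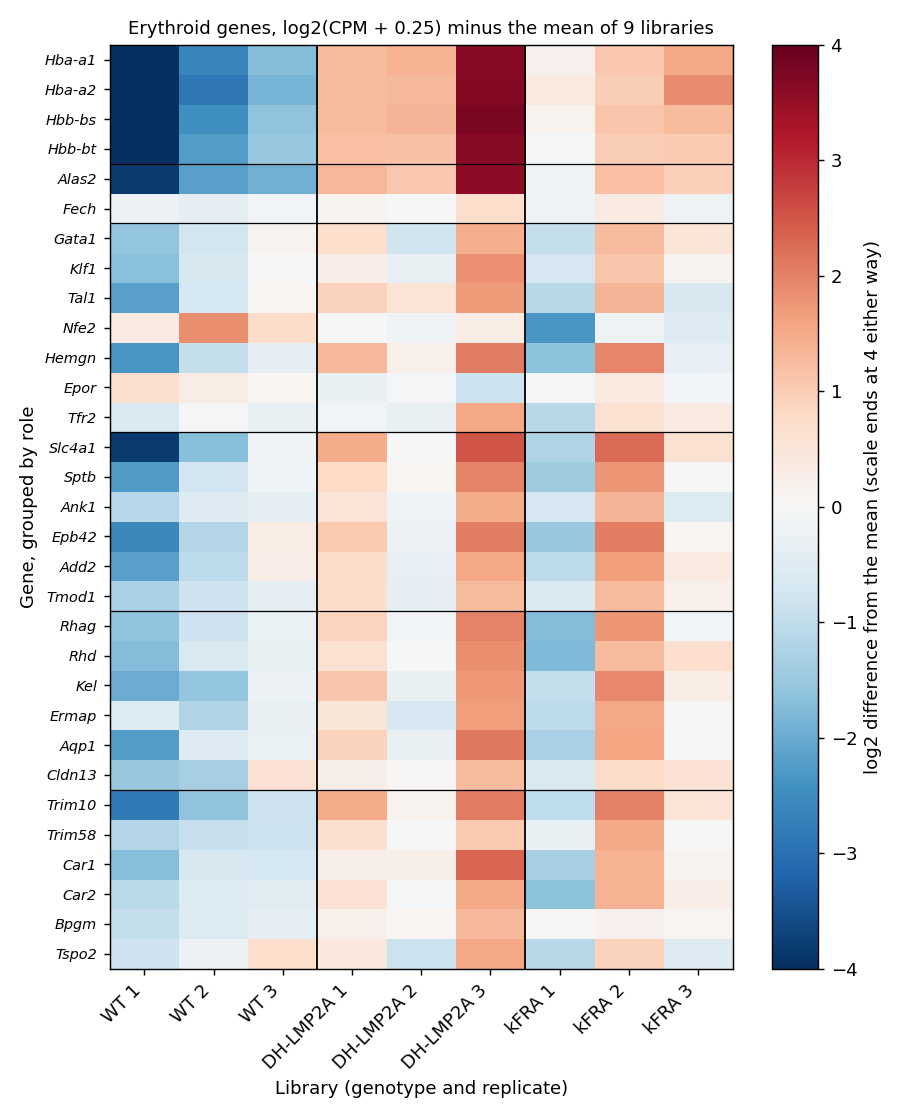
log2(CPM + 0.25) of the 31 members minus the mean of the 9 libraries, genes in rows grouped by role and libraries in columns (WT, DH-LMP2A, kFRA), with the colour scale ending at 4 either way. The globins and Alas2 separate WT from the rest, whereas the membrane and surface genes are high in DH-LMP2A replicates 1 and 3 and kFRA replicate 2.

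The membrane skeleton genes tie the lipid membrane of the red cell to its spectrin network. Slc4a1, on chromosome 11 (102348824 to 102366203), encodes band 3, the anion exchanger that anchors this network. It was at 0.760, 4.13 and 12.8 CPM in WT, at 39.4, 14.2 and 81.4 CPM in DH-LMP2A and at 5.95, 67.9 and 21.3 CPM in kFRA. DH-LMP2A lay above WT in all libraries, and kFRA overlapped both, because kFRA replicate 1 was within WT and kFRA replicate 2 within DH-LMP2A. The log2 fold change of Slc4a1 was 2.95 (SE 1.08) for DH-LMP2A against WT and 2.46 (SE 1.06) for kFRA against WT. Sptb (beta-spectrin), Ank1 (ankyrin, its link to band 3), Epb42 (protein 4.2), Add2 (beta-adducin) and Tmod1 (tropomodulin, which caps actin) had log2 fold changes of 1.48 to 2.35 for DH-LMP2A against WT and 1.08 to 2.01 for kFRA against WT. In each of the 6 genes kFRA replicate 2 exceeded kFRA replicate 1, by a CPM ratio of 4.39 to 21.9. Epb42 showed the widest gap, with 4 counts in kFRA replicate 1 and 126 in kFRA replicate 2.

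Blood group and surface genes had the same profile. Rhag, the Rh-associated glycoprotein, was at 0.101, 0.357 and 0.637 CPM in WT, at 1.73, 0.742 and 4.03 CPM in DH-LMP2A and at 0.0684, 3.38 and 0.753 CPM in kFRA. Rhd, the Rh protein itself, was at 0.355 to 1.40 CPM in WT, 1.81 to 7.05 CPM in DH-LMP2A and 0.342 to 4.57 CPM in kFRA. DH-LMP2A lay above WT in both Rh genes, and kFRA spanned the other groups. Kel (the Kell blood group protease), Ermap (the Scianna blood group protein), Aqp1 (a water channel) and Cldn13 (a claudin of mouse erythroblasts) overlapped between all groups, with log2 fold changes against WT of 1.42 to 2.58 in DH-LMP2A and 1.13 to 2.40 in kFRA. Aqp1 spanned 0.810 to 3.88 CPM in WT, 3.80 to 21.1 CPM in DH-LMP2A and 1.78 to 14.6 CPM in kFRA, with kFRA replicate 2 again near the top.

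Among the remaining members, Trim10 and Trim58 encode ubiquitin ligases of late erythroblasts. Trim10 was at 0.0506, 0.459 and 0.955 CPM in WT, at 5.75, 2.13 and 8.83 CPM in DH-LMP2A and at 0.821, 8.52 and 2.89 CPM in kFRA. Trim58 had 0, 1 and 1 counts in WT, at or under the floor, against 15, 7 and 20 in DH-LMP2A and 3, 29 and 5 in kFRA, so no fold is given for it. Both genes were higher in every DH-LMP2A library than in any WT library. Car1 and Car2, carbonic anhydrases that speed the exchange of carbon dioxide, were higher in every DH-LMP2A library than in any WT library, with log2 fold changes of 2.64 (SE 0.908) and 1.52 (SE 0.661). Bpgm, which makes the metabolite that lowers the oxygen affinity of haemoglobin, was at 21.0, 28.2 and 32.0 CPM in WT, at 47.8, 43.0 and 102 CPM in DH-LMP2A and at 42.3, 46.1 and 43.0 CPM in kFRA. Bpgm was thus higher in all libraries of both genotypes than in WT, and varied little within kFRA. Tspo2, a cholesterol-binding protein of erythroblast membranes, had at most 29 counts and showed no separation.

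Over the whole set, 28 of 30 tested members had a positive log2 fold change for DH-LMP2A against WT, with a median of 2.13, and 28 of 30 for kFRA against WT, with a median of 1.77. Over all 14199 tested genes the medians were −0.01 and −0.04. The edgeR test called 8 members, all higher, in DH-LMP2A against WT, where it called 12.4% of all tested genes (5.07% higher and 7.3% lower). Those were the 4 adult globins, Alas2, Trim10, Trim58 and Bpgm. In kFRA against WT it called 6 higher (the 4 adult globins, Alas2 and Trim58) and 1 lower (Nfe2), where it called 17.8% of all tested genes (6.68% higher and 11.1% lower). These comparisons share the WT libraries and were used to choose the set, so nothing is read from the counts. The groups did not overlap for 19 members higher and 2 lower (Nfe2 and Epor) in DH-LMP2A against WT, beside 17.5% and 19.1% of all genes, and for 7 higher and 1 lower in kFRA against WT, beside 14.2% and 20.2%.

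Single libraries moved the fold changes. The median over the members in kFRA against WT was 0.74 without kFRA replicate 2, in place of 1.77. In DH-LMP2A against WT it ranged from 1.46 without DH-LMP2A replicate 3 to 3.07 without WT replicate 3. No member called in kFRA against WT kept its call in all 6 fits that left out a library. As above, nothing is read from these calls.

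**Figure D4:**
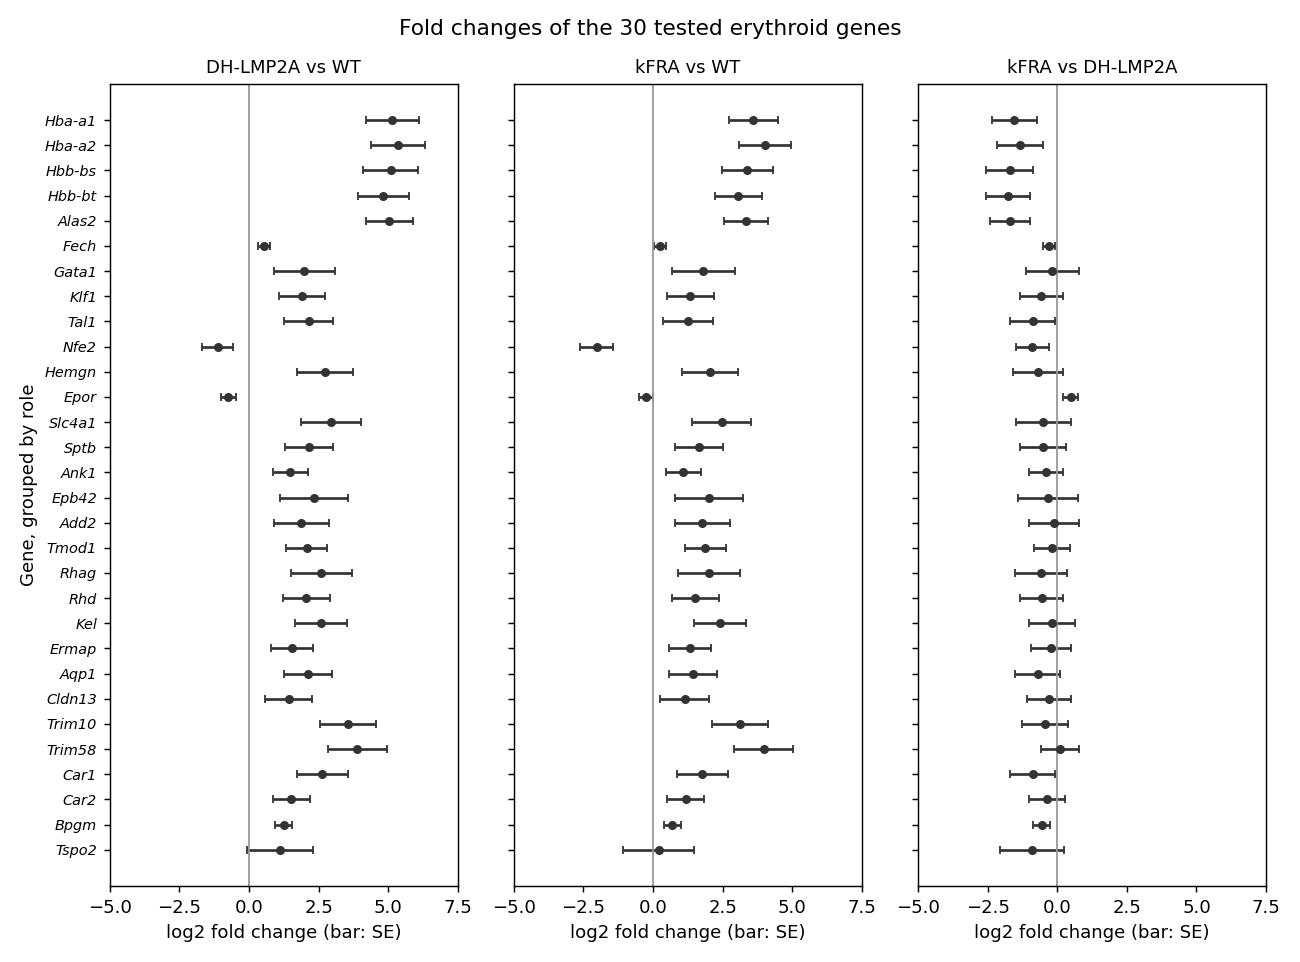
log2 fold change of the 30 tested members in the 3 comparisons, points with bars of 1 SE from the edgeR fit and genes grouped by role. All but Nfe2 and Epor lie to the right of 0 against WT. The value of Trim58 rests on 0, 1 and 1 counts in WT.

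Between kFRA and DH-LMP2A the members differed less than either did from WT. The median log2 fold change was −0.53 and 28 of 30 were lower in kFRA, but no member was called, against 5.02% of all genes, and DESeq2's Wald test called none either. The globins were at −1.33 to −1.76 and Alas2 at −1.70, while the membrane skeleton genes were at −0.11 to −0.50. The groups did not overlap for 2 members, Hbb-bt and Nfe2, both lower in kFRA, beside 13.9% of all genes. The lower median in kFRA depended on single libraries. Without DH-LMP2A replicate 3 the median was 0.23, and 21 of 30 members were higher in kFRA. Without kFRA replicate 1 it was −0.06, and 11 of 31 were higher in kFRA. Leaving out kFRA replicate 2 instead lowered it to −1.37.

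The libraries of one genotype did not rank in 1 order for all members. DH-LMP2A replicate 3 was the highest of the 9 libraries for 24 of 31 members and kFRA replicate 2 for 5. WT replicate 1 was the lowest for 22 and kFRA replicate 1 for 6. Within kFRA, replicate 2 was the highest for 27 members, and replicate 3 for the other 4. Those 4 were the adult globins. The CPM ratio of kFRA replicate 2 to kFRA replicate 1 had a median of 1.92 over the 4 globins and 10.3 over the 6 membrane skeleton genes, and was 1.09 for Bpgm. The ratio of DH-LMP2A replicate 1 to DH-LMP2A replicate 2 was 0.963 over the globins and 2.61 over the skeleton genes. That of DH-LMP2A replicate 3 to DH-LMP2A replicate 2 was alike in both classes, at 5.28 and 4.28.

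The stage of maturation was described by ratios of RPKM within each library. Summed adult globins per Slc4a1 were 378, 1108 and 984 in DH-LMP2A replicates 1 to 3, 1158.5, 192 and 779 in kFRA and 296, 257 and 151 in WT. The libraries fell into a range of 151 to 378, which held all WT libraries, DH-LMP2A replicate 1 and kFRA replicate 2, and a range of 779 to 1158.5, which held the others. The same libraries stood together when globins were set against the summed membrane skeleton genes, at 106 to 298 and 616 to 821. The ratio differed between mice of 1 genotype by more than it did between DH-LMP2A and kFRA, whose means were 824 ± 391 and 710 ± 487 (SD, n = 3 each), against 235 ± 75.2 in WT (SD, n = 3). Klf1 per Slc4a1 was 0.254 to 0.638 in WT, 0.103 to 0.177 in DH-LMP2A and 0.118 to 0.293 in kFRA, resting on as few as 3 counts of Klf1 and 15 of Slc4a1 in WT replicate 1. The low ratios occur in libraries with high Xist, DH-LMP2A replicate 1, kFRA replicate 2 and WT replicates 1 and 3, but DH-LMP2A replicate 2 has high Xist with a ratio of 1108 and WT replicate 2 has low Xist with 257. The part of sex in the ratio was not tested.

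**Figure D5:**
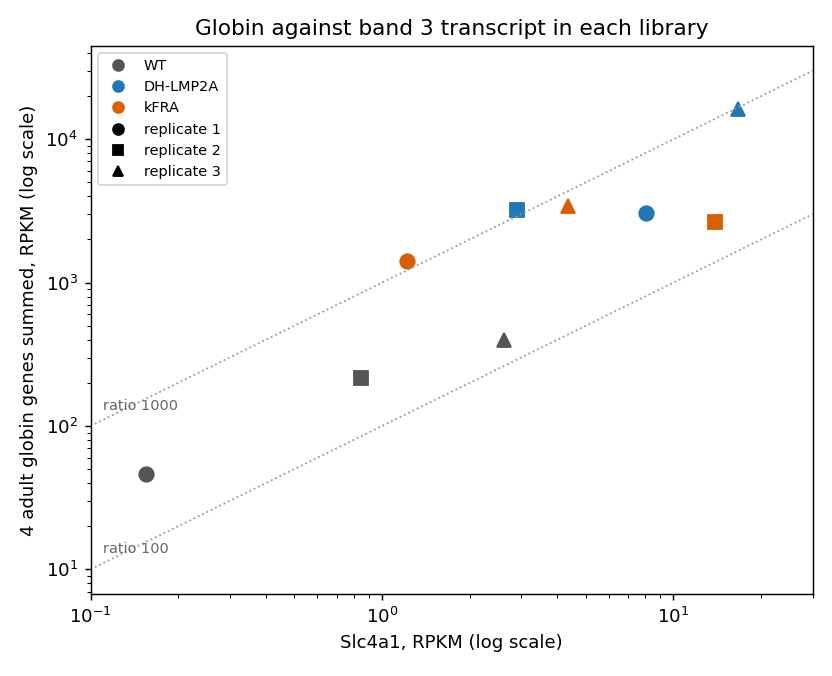
Summed RPKM of the 4 adult globins against RPKM of Slc4a1 (band 3) in each library, both axes log, with dotted lines at ratios of 100 and 1000. kFRA replicate 2 has nearly the Slc4a1 level of DH-LMP2A replicate 3 but a globin level near that of DH-LMP2A replicates 1 and 2, and the WT libraries, at ratios of 151 to 296, lie nearer the lower line.

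The other known genes of the lineage gave a mixed picture. Of 69 further erythroid genes, 57 were tested. In DH-LMP2A against WT edgeR called 5 higher and 4 lower, beside 5.07% and 7.3% of all genes, with a median log2 fold change of 0.14. In kFRA against WT it called 7 higher and 4 lower, beside 6.68% and 11.1%, with a median of 0.06. In kFRA against DH-LMP2A the counts were 3 higher and 2 lower, beside 1.73% and 3.3%, with a median of −0.13. Those were Slc6a9 (1.58), Kcnn4 (1.15) and Riok3 (0.45) higher in kFRA and Alad (−1.02) and Foxo3 (−0.92) lower, and Foxo3 alone kept its call whichever library was left out. In kFRA against WT the calls included Ppox, Kit, Sox6, Uros and Riok3 higher and Stom, Myb, Foxo3 and Cd47 lower. Slc6a9, Riok3, Ppox and Cd47 were named after their values were seen. Many of these genes are also made by other blood cells. With library size alone in place of TMM, which shifted the median of all genes to 0.33 and 0.17, the calls against WT became 12, all higher, for DH-LMP2A and 11 higher and 1 lower for kFRA. The share of all genes called under that scaling is not reported here.

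Kit, the stem cell factor receptor of early erythroid progenitors and of mast cells, had the smallest p-value of them in DH-LMP2A against WT. It was at 4.86, 3.52 and 3.95 CPM in WT, at 30.5, 30.8 and 43.3 CPM in DH-LMP2A and at 22.0, 25.5 and 15.0 CPM in kFRA. It was higher in 3 of 3 libraries of both genotypes, with log2 fold changes of 3.08 (SE 0.248, edgeR adjusted p = 6.08e-05) and 2.34 (SE 0.244, edgeR adjusted p = 0.000236). Like most members, Kit was highest in DH-LMP2A replicate 3 and, within kFRA, in kFRA replicate 2, but its lowest kFRA library was replicate 3. Gata2, which marks progenitors and mast cells, was at or below 0.641 CPM in every library, and the mast cell genes Cpa3 and Fcer1a were at or below 0.137 CPM. Ms4a2, of the same mast cell and basophil list, was called higher against WT in both genotypes. Its log2 fold changes were 2.13 in DH-LMP2A and 1.78 in kFRA, from few counts. The part of mast cells in the Kit values was not tested.

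Of the 14 tested haem and mitochondrial iron genes, Alad rose and Tmem14c fell in DH-LMP2A against WT. Alad, the second enzyme of the pathway, was at 21.8, 29.3 and 40.6 CPM in WT, 67.1, 57.3 and 75.5 CPM in DH-LMP2A and 33.7, 31.0 and 33.7 CPM in kFRA. Its log2 fold change was 1.12 (SE 0.211, edgeR adjusted p = 0.00861) in DH-LMP2A, 0.10 (edgeR adjusted p = 0.75) in kFRA, each against WT, and −1.02 (edgeR adjusted p = 0.0244) for kFRA against DH-LMP2A. Every DH-LMP2A library thus lay above every library of the other genotypes in Alad. Tmem14c, which moves a haem precursor across the mitochondrial membrane, had a log2 fold change of −0.53 (edgeR adjusted p = 0.0324, SE 0.134). In kFRA against WT, Uros (0.70, edgeR adjusted p = 0.0311) and Ppox (0.97, edgeR adjusted p = 0.00869), enzymes of middle and late steps, rose. Uros was at 0.42 in DH-LMP2A and was not called there. The DH-LMP2A call of Alad held whichever library was left out, its call between kFRA and DH-LMP2A held only without kFRA replicate 2, and that of Tmem14c only without WT replicate 3. The kFRA call of Uros was lost without replicate 1 or 3 of kFRA or replicate 1 or 2 of WT.

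Of 11 further regulators, Sox6, which silences an embryonic globin gene in adult red cells, was higher in DH-LMP2A (2.01, SE 0.486, edgeR adjusted p = 0.0259) and kFRA (2.09, SE 0.489, edgeR adjusted p = 0.0188), though at or below 2.76 CPM throughout. Myb, which keeps progenitors dividing, was lower, with 11.4, 9.28 and 8.53 CPM in WT against 2.62, 1.86 and 3.71 CPM in DH-LMP2A and 0.752, 3.62 and 1.82 CPM in kFRA. Its log2 fold changes were −1.84 (SE 0.457, edgeR adjusted p = 0.0294) and −2.21 (SE 0.470, edgeR adjusted p = 0.0126). Foxo3, a stress regulator made in many cells, rose by 0.45 in DH-LMP2A (edgeR adjusted p = 0.0469) and fell by 0.47 on the log2 scale in kFRA (edgeR adjusted p = 0.0325), each against WT. Lyl1, a relative of Tal1, was at −0.56 in DH-LMP2A and was not called. In DH-LMP2A the Sox6 and Foxo3 calls were lost without replicate 1 or 3 of DH-LMP2A or any 1 WT library, and that of Foxo3 also without DH-LMP2A replicate 2. The Myb call there held only without DH-LMP2A replicate 3. In kFRA the Myb call held whichever library was left out, that of Sox6 was lost without WT replicate 1 and that of Foxo3 without replicate 1 or 3 of kFRA or 1 or 2 of WT.

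Of 13 tested membrane and blood group genes, Stom, a scaffold of lipid rafts, was called lower in DH-LMP2A (−0.86, edgeR adjusted p = 0.0271) and in kFRA (−0.93, edgeR adjusted p = 0.0168). Kcnn4 (a potassium channel) and Slc14a1 (a urea transporter) were at −0.73 and −0.95 in DH-LMP2A and were not called. Most of the list went the other way there. Of the 13 genes, 8 had a positive log2 fold change in DH-LMP2A against WT (median 0.37). In kFRA against WT 5 had a positive one (median −0.27). Among 17 terminal maturation genes, Blvrb, which reduces biliverdin, was lower in DH-LMP2A (−0.78, edgeR adjusted p = 0.0254), while Bnip3l, which clears mitochondria from reticulocytes, was at 0.34 and Rundc3a at −1.71, neither called. Of the 17, 10 had a positive log2 fold change in DH-LMP2A (median 0.04) and 11 in kFRA (median 0.20), each against WT. Besides Blvrb, edgeR called 1 of them higher in DH-LMP2A, beside 5.07% of all genes. In kFRA it called 2 higher, beside 6.68%. The DH-LMP2A call of Stom held only without DH-LMP2A replicate 2 and that of Blvrb only without DH-LMP2A replicate 2 or WT replicate 3, and the kFRA call of Stom was lost without kFRA replicate 1. Hbq1b, a theta-globin gene near Hba-a1, had 1, 1 and 2 counts in WT, under the floor, and at most 31 in any library.

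Markers of macrophages, which sit at the centre of erythroblastic islands, and of other cells were summed as well. The macrophage genes Vcam1, Slc40a1, Adgre1, Spic, Cd163 and Siglec1 summed to 2264 to 3985 CPM in WT, 730.4 to 2455 CPM in DH-LMP2A and 1172 to 2748 CPM in kFRA, with all 6 present in every library. The lowest sum, 730.4 CPM, was in DH-LMP2A replicate 3, the library highest in globin, and the highest of kFRA, 2748 CPM, was in kFRA replicate 2. Vcam1, the most abundant of them, was at 353 CPM in DH-LMP2A replicate 3 and at 1826 CPM in WT replicate 1. Against WT 5 of the 6 had a negative log2 fold change and 1 a positive one in each genotype. The medians were −1.07 in DH-LMP2A and −0.92 in kFRA, and edgeR called none of the 6. The 8 megakaryocyte and platelet genes summed to 10.4 to 29.9 CPM in WT, 9.29 to 30.5 CPM in DH-LMP2A and 7.87 to 11.2 CPM in kFRA, mostly Vwf, with Gp1ba, Gp6 and Gp9 at or near 0. The mast cell and basophil sum, 4.20 to 5.17 CPM in WT, 31.9 to 45.2 CPM in DH-LMP2A and 16.1 to 26.5 CPM in kFRA, was nearly all Kit and had the order of the globins over the genotypes, with DH-LMP2A replicate 3 the highest library. The other tested gene of that list, Ms4a2, had at most 28 counts and, as given above, was called higher in both genotypes against WT. T cell genes summed to 35.7 to 91.6 CPM in WT, 35.7 to 59.9 CPM in DH-LMP2A and 28.0 to 40.6 CPM in kFRA, with Cd4 the highest, and B cell genes to 656 to 809, 1219 to 1599 and 678 to 1089 CPM, with Cd79a the highest. The B cell genes did not move together: in DH-LMP2A against WT edgeR called 3 of 6 higher (median 0.77) with Pax5 at −1.31 and Fcer2a at −2.53, and in kFRA against WT it called 3 lower (Pax5, Cr2 and Fcer2a) and 5 of 6 were negative (median −0.76). The part of these cells in the erythroid values was not tested.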

How the data were processed

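RNA of captured CD138+ spleen cells was sequenced with a stranded kit as paired reads of 75 bases, per the labels' protocols. The authors deposited 1 table of raw counts per gene with gene positions and lengths, 1 column per library. The submitters' processing notes name STAR 2.4.0a, featureCounts of Subread 1.5.0-p3, DESeq2 and the builds mm10 and GRCm38. The strand setting and the handling of reads that match several copies are not given in the sources used here.

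From these counts, genes with enough reads by edgeR's filterByExpr were kept, TMM factors were computed, and edgeR 4.0.16 (R 4.3.3) fitted its quasi-likelihood model to all 9 libraries with genotype as the single term, with Benjamini-Hochberg adjustment over 14199 genes and a threshold of 0.05. The members and the gene lists were chosen with earlier results of these data known. All members are named. From each list of further erythroid genes the text names up to 4 genes with the smallest p-value in DH-LMP2A against WT. Within 1 Mb of Hbb-bs and Hba-a1 it names, at each, up to 4 genes by p-value in DH-LMP2A against WT and up to 4 in kFRA against DH-LMP2A. From each list of other cells it gives the sum and the gene with the highest mean CPM. Some genes that the rule would name are not reported here. Other genes it names were chosen after their values were seen, or mark a cell type. The labels give no batch, and p-values measure the spread between mice. Replicate pairs differed beyond sampling noise (chi-square per degree of freedom 18.8 to 179).

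The test was checked on counts simulated for DH-LMP2A against WT over 14199 genes. It recovered 34% of 100 genes changed 2-fold and 75% of 100 changed 4-fold, with 3 false calls. Alternatives were DESeq2 1.42.0 as the test, its size factors in edgeR, scaling by library size without TMM, keeping genes with low counts, dropping immunoglobulin genes, fitting only the 6 libraries compared, a replicate block and leaving out each library. Shares carry Wilson intervals at 95%. Promoters and exon overlaps came from RefSeq GRCm38.p6 and GENCODE M21. Of the 31 members in the table, 27 have the same start and end in GENCODE M21 and 26 overlap no exon of another gene.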

Additional observations from a re-analysis of the deposited data

How the results depend on the processing

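The number of members called was 8, 7 and 0 for DH-LMP2A against WT, kFRA against WT and kFRA against DH-LMP2A, and 9, 11 and 5 for the further erythroid genes. Of all tested genes, 12.4%, 17.8% and 5.02% were called in these comparisons. The shares of all genes called in the other fits below are not reported here, so nothing is read from their counts. DESeq2's Wald test called 13 members and 15 further genes in DH-LMP2A against WT and 12 further genes in kFRA against DH-LMP2A. When 1 library was left out, the members called ranged from 5 to 8, from 0 to 6 and from 0 to 0, and the further genes from 3 to 6, from 5 to 22 and from 1 to 17. The last range is highest without kFRA replicate 2. The members' median log2 fold change then ranged from 1.459 to 3.073, from 0.7414 to 2.479 and from −1.367 to 0.2281. The last value, without DH-LMP2A replicate 3, reversed the direction between kFRA and DH-LMP2A, and the other medians kept theirs. The causes were not tested. With library size alone the members' medians were 2.485, 2.105 and −0.498, beside a shift of the median of all genes to 0.33, 0.17 and −0.14. Nfe2, the member called lower in kFRA against WT, was no longer called there. Depth limits Gata1, Tfr2, Trim58 and Tspo2, which have few counts in most libraries. The share of Hbb-bt stayed between 12.58% and 14.09% in WT, 10.52% and 10.8% in DH-LMP2A and 10.01% and 10.46% in kFRA as single libraries were left out.

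Replicate numbers did not pair the samples: the deviations of libraries with the same number correlated at −0.265 to 0.264, and those with different numbers at −0.333 to 0.347. With a replicate block, 10, 14 and 4 further genes were called in the 3 comparisons, and the members' medians were 2.396, 1.747 and −0.7912.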
